A study of Mus musculus with 3 samples.

Results

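Galectins are soluble lectins that bind beta-galactosides. They are made in the cytosol, lack a signal peptide and reach the cell surface by a route outside the classical secretory pathway. Prototype galectins such as galectin-1 and galectin-2 have a single carbohydrate recognition domain, galectin-3 is a chimera with a proline- and glycine-rich tail, and the tandem repeat galectins (galectin-4, galectin-8 and galectin-9) carry a pair of different domains. In gut epithelium they are known for binding mucins and cell surface glycoproteins and for apical transport of glycoproteins.

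The 6 galectin genes Lgals1, Lgals2, Lgals3, Lgals4, Lgals8 and Lgals9 were taken by symbol from the platform's gene table, with every probe set that names 1 gene. This gave 9 of the 45101 probe sets, and 6 of 18194 genes. The genes were picked with their values on these arrays known, so the levels below are a description. Each was measured on 3 Affymetrix Mouse Genome 430 2.0 arrays, 1 for parietal cells (acid-secreting), 1 for zymogenic cells (enzyme-secreting, also called chief cells) and 1 for pit cells (mucous cells of the upper gastric unit). All came from mouse stomach by laser-capture microdissection, with RNA pooled over 4 to 5 mice and 3000 to 5000 cells a lineage. Strain, age, genotype and treatment were not stated in the labels used. Pit and zymogenic cells were chosen by E-cadherin staining and parietal cells by autofluorescence and staining with the lectin DBA. Parietal and pit cells shared gastric units, and zymogenic cells came from other slides, so for those cells lineage and slide cannot be told apart.

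With 1 array a lineage, no difference has a replicate check, a test or a p-value. Values are the deposited linear intensities. A value counted as detected above a floor of 23.3, the level that 80 probe sets for olfactory and vomeronasal receptors rarely passed, and lower values were raised to it before a difference was taken. A fold against a value under the floor is a lower bound. Where a gene had several probe sets, their log2 ratios of 1 array to another scattered with an SD of 0.479, which describes measurement scatter and not biological spread.

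The labels were checked against marker genes. Of 10 pit markers, 9 were above the floor in the parietal, 1 in the zymogenic and 10 in the pit sample, with summed values of 20378, 160 and 14783. Gkn1, at 10493 for the parietal and 8307 for the pit array, and Gkn2, at 7987 and 2723, made up most of the parietal and pit sums. The list's median for parietal minus pit was -0.46 on the log2 scale, so that most pit markers were brighter on the pit array. Tff2 and Gkn3 of this list are also markers of mucous neck cells. Zymogenic markers summed to 4126 for the parietal, 37816 for the zymogenic and 342 for the pit array, and parietal markers, 9 of which had probe sets, to 5680, 1284 and 384. The parietal array thus held markers of both other lineages. The zymogenic array held parietal markers, with the proton pump genes Atp4a at 261 (214 for the parietal array) and Atp4b at 793. It also had 5 of 7 endocrine markers above the floor, which summed to 40.6 for the parietal, 959 for the zymogenic and 66.8 for the pit array. Each galectin value therefore belongs to the cells captured under a label, and the share of each cell type in it was not tested. In pooled cells, fewer cells of a type and less RNA per cell cannot be told apart.

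In the deposited values, Lgals1, Lgals2 and Lgals3 differed in their order of lineages, and Lgals4 had that of Lgals3. Lgals2 was brightest on the parietal array and Lgals3 on the pit array. Lgals4 was detected on both of those arrays at levels less than 2-fold apart, and Lgals1 was detected on all 3. Of the 6 genes, 5 were above the floor in the parietal, 1 in the zymogenic and 4 in the pit sample. Over all 18194 genes the shares were 15.4%, 12.6% and 14.4%, so that 1 of 6 in the zymogenic sample is near the share of all genes. The 1 in the zymogenic sample was Lgals1. Lgals8 passed the floor by a small margin on the parietal array alone and Lgals9 on none.

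**Figure D1:**
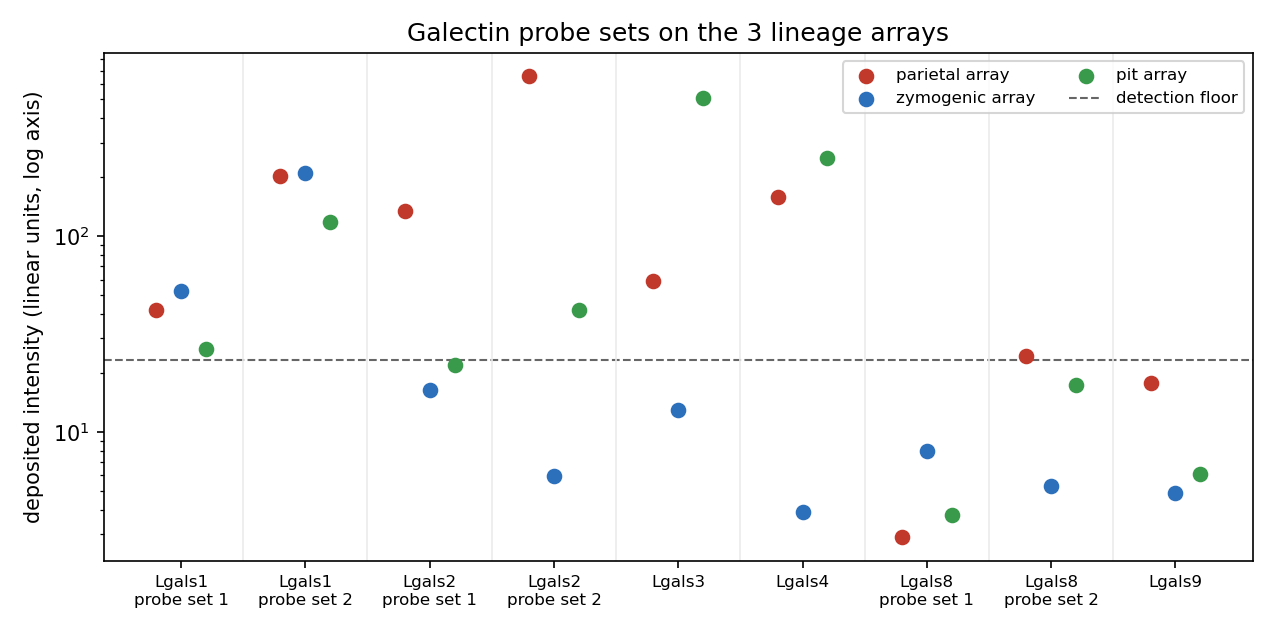
Deposited intensity (linear units on a log axis) of each of the 9 galectin probe sets on the parietal, zymogenic and pit arrays, 1 point an array, with the detection floor of 23.3 as a dashed line. The zymogenic points of Lgals2, Lgals3 and Lgals4 lie below the floor, and both Lgals1 probe sets lie above it on every array.

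Lgals2 encodes galectin-2, a prototype galectin that forms dimers. Its brighter probe set (1417079_s_at) stood at 657 for the parietal, 5.94 for the zymogenic and 42.1 for the pit array. The parietal value was 15.6-fold above the pit value and at least 28.3-fold above the zymogenic one. The second probe set (1417078_at) read 135 on the parietal array and was under the floor on the zymogenic and pit arrays, at 16.3 and 21.9, so that the parietal value was at least 5.81-fold above both. Both probe sets thus put the parietal array far above the other 2. Among the 1984 genes above the floor on both the parietal and the pit array, the Lgals2 difference was the third highest, at 3.96 on the log2 scale. That rank rests on the brighter probe set, which by its name is not transcript-specific. The second probe set is, and with its pit value under the floor it would have no rank among these genes. Other genes under the floor on the pit array had no rank either. Some of them gave lower bounds above 3.96, such as Apoa1 at 4.98 and Ifit1bl1 at 4.35.

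None of 10 pit markers had a parietal minus pit difference as high as that of Lgals2. The marker nearest to it was Tff2, a trefoil peptide also made by mucous neck cells, at 1.87. Of the 2 parietal markers above the floor on both arrays, Atp4b, the beta subunit of the proton pump, was higher than Lgals2, at 5.43, and the carbonic anhydrase Car2 lower, at 1.80. Atp4a, the catalytic subunit of the pump, and the channel protein Clic6 were under the floor in pit cells and gave lower bounds of 3.20 and 3.32, so that their place beside Lgals2 is not known. Of 4 zymogenic markers above the floor on both arrays, all were lower than Lgals2, with Pla2g1b, a secreted phospholipase, close to it at 3.92. Pgc, a pepsinogen, gave a lower bound of 3.23 and has no known place either. In parietal minus zymogenic, Lgals2 gave a lower bound of 4.82, above all 4 parietal markers that passed the floor on both arrays. These were Atp4b at 2.47, Clic6 at 1.10, Atp4a at -0.29 and Kcnq1 at -1.05. Car2 gave a lower bound of 4.97 there. The pit markers compared had a median of 4.11 over 9 genes, of which 1 was above the floor on both arrays.

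Lgals1 encodes galectin-1, a dimer-forming prototype galectin abundant in mesenchymal cells and known for effects on T cells. Its probe set 1455439_a_at stood at 202 for the parietal, 211 for the zymogenic and 118 for the pit array. The probe set 1419573_a_at read 41.9, 52.6 and 26.4 on the same arrays. The pit array was lowest in both, and neither set the parietal and zymogenic arrays apart by more than the scatter between probe sets. With the brighter probe set, parietal minus pit came to 0.78, zymogenic minus pit to 0.84 and parietal minus zymogenic to -0.06 on the log2 scale. The 2 probe sets differed from each other by 0.11, 0.15 and 0.27 in these log2 differences, each below the SD of 0.479.

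Stromal markers moved with Lgals1 in part. Of 9 such genes, 4 were above the floor in the parietal, 3 in the zymogenic and 1 in the pit sample, with summed values of 345, 192 and 117. The collagen gene Col1a2 stood at 125, 61.7 and 25.6, and Dcn, Lum, Pdgfra and Fn1 were under the floor on all 3 arrays. Macrophage and leukocyte markers summed to 241, 483 and 127, of which Csf1r, a growth factor receptor of macrophages, gave 111, 374 and 22.4 and accounted for most of the zymogenic sum. Others did not follow it. Adgre1, the macrophage antigen F4/80, read 33.6, 5.83 and 34.1, and the complement gene C1qb 33.8, 23.8 and 30.4. The list's median for zymogenic minus pit was -0.16 on the log2 scale, over 4 genes, and Cd68, Itgam and C1qa were at most 6.82. The endocrine markers summed to 959 in the zymogenic sample, where Lgals1 read 211, and to 40.6 in the parietal sample, where it read 202. Of 6 smooth muscle markers, 1 was above the floor in the parietal, 2 in the zymogenic and 1 in the pit sample, with summed values of 128, 201 and 151. Acta2, 1 of them, had differences of -0.01 in parietal minus pit, 0.80 in zymogenic minus pit and -0.81 in parietal minus zymogenic. Those of Lgals1 were 0.78, 0.84 and -0.06. The part of stromal, immune, smooth muscle or endocrine cells in the Lgals1 values was not tested.

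Lgals3 encodes galectin-3, the chimera galectin, which forms oligomers through its tail and binds branched N-glycans and mucins. Its 1 probe set (1426808_at) stood at 59.2 for the parietal, 12.9 for the zymogenic and 511 for the pit array. The parietal value was 8.63-fold below the pit value and the zymogenic value at least 21.96-fold below it. Parietal exceeded zymogenic by at least 2.54-fold. The parietal minus pit difference of -3.11 was the fourth lowest of the 1984 genes measured on both arrays. Genes under the floor on the parietal array were not ranked. Some of them were lower than Lgals3 by their bounds, such as Krt7, at most -5.27, and Cybrd1, at most -3.85. Of 9 pit markers above the floor on both arrays, only Krt20, a keratin of differentiated surface cells, had a lower parietal minus pit difference, at -4.35. The surface mucin Muc5ac lay at -1.53.

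Lgals4 encodes galectin-4, a tandem repeat galectin of gut epithelium that in human intestinal cells binds sulfated glycolipids and takes part in apical transport. Its probe set (1451336_at) read 159 for the parietal, 3.89 for the zymogenic and 251 for the pit array. The parietal value was 1.58-fold below the pit value, a log2 difference of -0.66, under 2-fold. Parietal exceeded zymogenic by at least 6.83-fold, and the zymogenic value was at least 10.8-fold below the pit one. The pit marker Tff1 showed a like parietal minus pit difference of -0.62, with 601 for the parietal and 926 for the pit array. Pit markers varied widely in this difference, from 1.87 for Tff2 to -4.35 for Krt20. Of the 9 above the floor on both arrays, 5 were higher than Lgals4 and 4 lower. Some mouse strains carry a close copy of Lgals4, named Lgals6, and whether this probe set also reads it was not tested.

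Lgals8 encodes a tandem repeat galectin that in human cells marks damaged vesicles for autophagy. One of its probe sets (1422662_at) read 24.4 for the parietal, 5.29 for the zymogenic and 17.3 for the pit array, and the other (1422661_at) was under the floor throughout, at 2.89, 7.95 and 3.77. Lgals9, a tandem repeat galectin known as a ligand of the T cell receptor TIM-3, was under the floor on all 3 arrays, at 17.8, 4.88 and 6.06. For these 2 genes no difference between lineages was measurable.

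The 4-fold differences were then set against those of all genes. In parietal against pit, 2 of the 5 galectins above the floor on either array were at least 4-fold apart, Lgals2 (higher on parietal) and Lgals3 (lower), where 4.1% of 3441 genes were, 2.94% as higher and 1.16% as lower. In zymogenic against pit, 2 of 4 were, Lgals3 and Lgals4, both lower on the zymogenic array, where 11.9% of 3624 genes were called either way and 8.03% as lower. In parietal against zymogenic, 2 of 5 were, Lgals2 and Lgals4, both higher on the parietal array, against 10.5% of 3597 genes either way and 7.28% as higher. The median over the galectins compared, on the log2 scale, came to 0.07 in parietal minus pit, to -2.14 in zymogenic minus pit and to 1.35 in parietal minus zymogenic, against 0.08, -0.13 and 0.29 over all genes compared. Values under the floor enter these medians at the floor. As the genes were picked with these values known, the counts describe them and support nothing further.

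**Figure D2:**
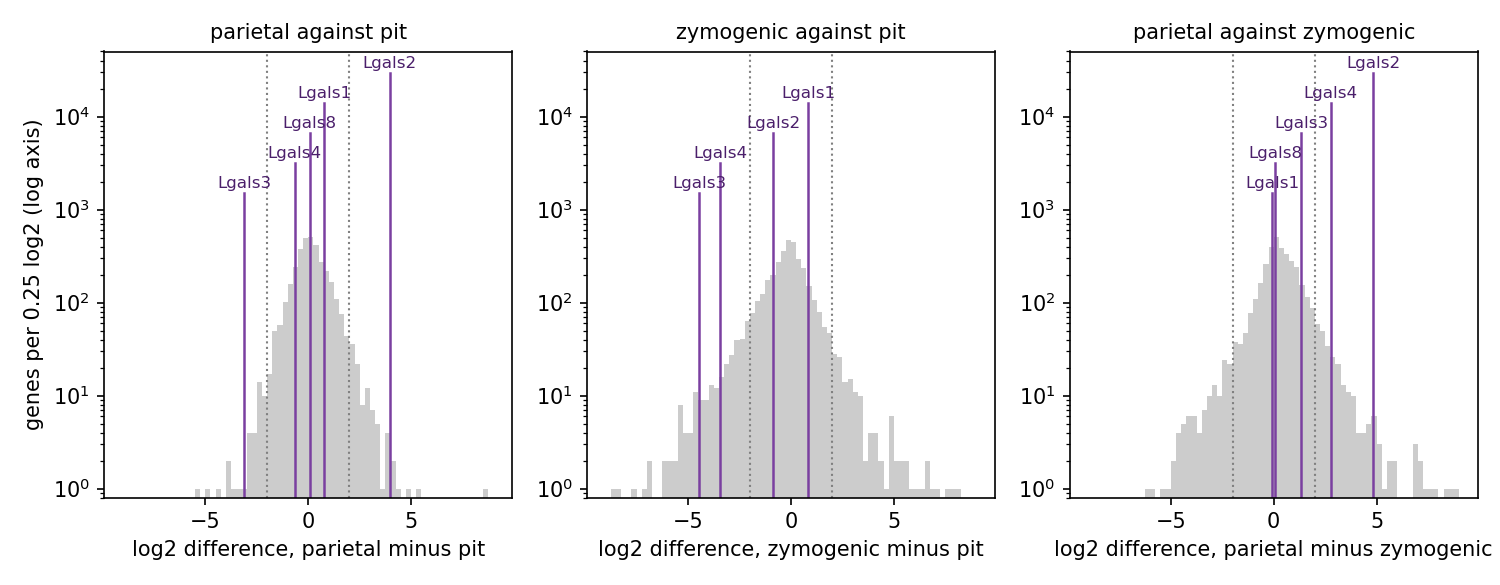
Histograms of the log2 difference (x axis) of all genes above the floor on either array of a pair, as genes per 0.25 log2 on a log axis, for parietal minus pit, zymogenic minus pit and parietal minus zymogenic. Purple lines mark the galectins and dotted lines 4-fold; Lgals2 at 3.96 and Lgals3 at -3.11 lie in opposite tails of the parietal against pit panel.

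**Figure D3:**
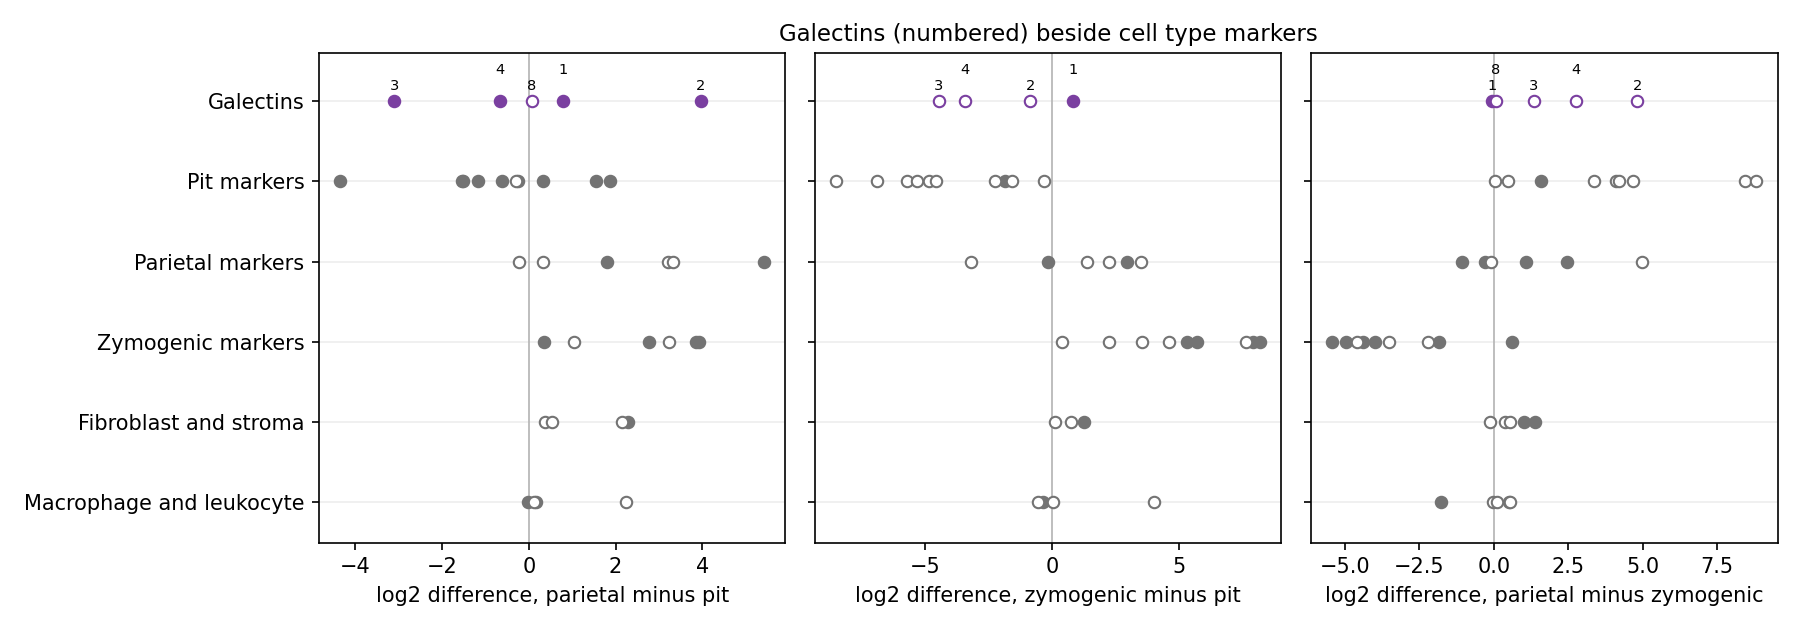
Log2 differences (x axis) of the galectins, labelled by their number, and of 5 marker lists (rows) for parietal minus pit, zymogenic minus pit and parietal minus zymogenic. Open points are differences against a value at the floor; in the parietal minus pit panel Lgals2 lies above all 10 pit markers, and Lgals3 lies below 8 of the 9 that were measured on both arrays.

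The start regions of the 3 genes with the largest differences are shown. In the deposited values Lgals3 and Lgals4 shared the order of arrays and Lgals2 did not. The sequences are those of RefSeq on GRCm38.p6, 250 bases before to 50 after the start of the gene, 5′ to 3′ along its own strand, and 5 of the 6 galectins had one. Both strands were searched for the TATA box (TATAAA), for the site of nuclear factor Y (CCAAT), for the GC box that Sp1 binds (GGGCGG), for the site of AP-1 factors (TGANTCA) and for the site of GATA factors (AGATAA). Capitals mark the matches, none of which overlap. Lgals2 lies at chr15:78855480-78855779 on the minus strand, Lgals3 at chr14:47373610-47373909 and Lgals4 at chr7:28833544-28833843, both on the plus strand.
Lgals2: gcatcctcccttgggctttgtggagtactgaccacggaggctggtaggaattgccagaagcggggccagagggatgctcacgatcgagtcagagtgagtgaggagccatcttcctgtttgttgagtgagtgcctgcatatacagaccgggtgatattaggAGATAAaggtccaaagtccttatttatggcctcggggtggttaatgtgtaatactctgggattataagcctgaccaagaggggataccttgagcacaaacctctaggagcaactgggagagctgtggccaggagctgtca
Lgals3: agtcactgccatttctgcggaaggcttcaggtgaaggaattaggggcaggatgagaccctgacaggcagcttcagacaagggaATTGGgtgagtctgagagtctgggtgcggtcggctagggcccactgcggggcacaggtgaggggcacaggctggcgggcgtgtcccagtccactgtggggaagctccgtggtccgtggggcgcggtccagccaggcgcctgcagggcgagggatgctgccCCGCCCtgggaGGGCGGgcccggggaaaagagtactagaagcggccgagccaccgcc
Lgals4: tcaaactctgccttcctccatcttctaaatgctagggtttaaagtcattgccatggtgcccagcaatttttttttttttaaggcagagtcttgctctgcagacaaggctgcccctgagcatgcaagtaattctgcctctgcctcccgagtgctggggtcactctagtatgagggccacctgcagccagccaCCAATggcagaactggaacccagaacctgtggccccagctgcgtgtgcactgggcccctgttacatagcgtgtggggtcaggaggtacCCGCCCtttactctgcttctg

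The windows of Lgals3 and Lgals4 both held the nuclear factor Y site and the GC box, and that of Lgals2 held neither. Lgals2 had 1 match, a GATA site that begins at -90 from the start site. Lgals3 had a nuclear factor Y site on the reverse strand from -167, and a GC box on each strand, from -7 and from 5. In Lgals4 a nuclear factor Y site began at -59 and a reverse GC box at 30. The window of Lgals8, not shown, also held the nuclear factor Y site, on the reverse strand from -230 and from -203. The order of arrays for Lgals8 was that of Lgals2, with only its parietal value above the floor. The window of Lgals9 held no match. Whether these sites bear on the levels was not tested. Of 32851 such windows of all genes, 37.4% held the nuclear factor Y site, 35.7% the GC box, 13.6% the TATA box, 11.2% the GATA site and 7.81% the AP-1 site. The GC content was 52.0% for Lgals2, 67.0% for Lgals3 and 54.0% for Lgals4, against a median of 52.7% over all windows.

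Genes that make or modify the glycans galectins bind, and glycoproteins known to carry them, were examined next. Core O-glycan enzymes build the mucin chains. Of 4 measured, 2 were above the floor on any array, where 22.7% of all genes were. Gcnt3, which adds the branch of core 2 and core 4 glycans, stood at 264 for the parietal, 3.12 for the zymogenic and 459 for the pit array. Its zymogenic value was at least 19.7-fold below the pit value and its parietal value at least 11.3-fold above the zymogenic one. As deposited, this is the order of arrays of Lgals3 and Lgals4, and a link between them was not tested. Of all genes compared, 8.03% were at least 4-fold lower on the zymogenic than on the pit array. At least 4-fold higher on the parietal than on the zymogenic array were 7.28%. The parietal minus pit difference of Gcnt3 was -0.80 on the log2 scale. That of Lgals4, at -0.66, changed direction after scaling to added control transcripts (below). The order of Gcnt3 under that scaling was not examined.

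Enzymes of sulfated galactolipids, a known ligand class of galectin-4, had 4 of 5 members above the floor, against 22.7% of all genes. Gal3st1, which adds the sulfate, read 111 for the parietal, 8.91 for the zymogenic and 196 for the pit array. The zymogenic value was at least 8.44-fold below the pit value and the parietal value at least 4.77-fold above the zymogenic one. Of all genes compared, 8.03% and 7.28% were at least 4-fold apart in these directions. Ugt8a, which adds the galactose, was under the floor on all 3 arrays, at most 7.31. The other members, Cers2, Fa2h and Arsa, were less than 4-fold apart in every pair.

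Enzymes of N-glycan branching had 2 of 6 above the floor and 0 at least 4-fold apart. Mgat5, whose branches galectin-3 is known to prefer, was at most 6.56. Lactosamine chain enzymes had 3 of 12 above the floor and enzymes that cap galactose with sialic acid 2 of 7, with 0 in either list at least 4-fold apart. None of these 3 shares is below the 22.7% over all genes. Over all genes compared, 4.1% were at least 4-fold apart in parietal against pit, 11.9% in zymogenic against pit and 10.5% in parietal against zymogenic. With at most 3 detected members a list, a count of 0 is near those shares. St6gal1, whose product is known to hinder binding of most galectins, was at most 4.40.

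Among 18 glycoprotein partners, 11 were above the floor, where 22.7% of all genes were. At least 4-fold apart were 4.1% of all genes compared in parietal against pit, 11.9% in zymogenic against pit and 10.5% in parietal against zymogenic. Among the partners, 1 was at least 4-fold apart in a pair, near those shares. This was Cdh1, the adhesion protein E-cadherin, at 211 for the parietal, 21.5 for the zymogenic and 298 for the pit array, at least 12.8-fold lower on the zymogenic than on the pit array, although that protein's staining was used to choose the zymogenic cells. The next genes were singled out after their values were seen. Lgals3bp, a secreted glycoprotein that binds galectin-3, was above the floor on the parietal array alone, at 55.3, against 9.76 for the zymogenic and 15.0 for the pit array. It was therefore brightest where Lgals2, and not Lgals3, was. The mucin Muc1 had the same highest array, at 137 for the parietal, 43.9 for the zymogenic and 42.5 for the pit array. Lamp1, a lysosomal glycoprotein rich in lactosamine, was above the floor on all 3, at 315, 175 and 388.

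For each detected galectin, the genes with the nearest pattern were found by the Euclidean distance between log2 values over the 3 arrays, each centred on the gene's mean, among genes above the floor on the same arrays. For Lgals2, Lgals3 and Lgals4 the zymogenic value of every such gene is at the floor, so that the distance rests on the parietal and pit values. Nearest to Lgals2 among 797 such genes was Irf7, an interferon regulatory transcription factor, at a distance of 0.19 (762 for the parietal, 21.6 for the zymogenic and 41.1 for the pit array). Ifi27l2b, Tff2 and Basp1 followed at 1.29 to 1.55. Nearest to Lgals3 were Efhd2 (64.2, 6.84 and 465, distance 0.18) and Mxd1, a transcription factor (0.33), then Rep15 and Lmna at 0.52 and 0.57.

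Nearest to Lgals4 were the glucose transporter Slc2a1 (144, 21.9 and 233), Cdk3, Fer1l4 and the cytokine Il18 (171, 0.689 and 221), at distances of 0.11 to 0.20. For Lgals1, Naxd, Ccnl2, Mlec and Actn1 were nearest among 1185 genes, at 0.05 to 0.08. Genes at a distance within the SD between probe sets numbered 154 of 1185 for Lgals1 and 23 of 797 for Lgals4. For Lgals2 there was 1 such gene and for Lgals3 there were 2. The genes named for Lgals1 and Lgals4 are thus not set apart from the others within that scatter. For Lgals8, so close to the floor, the nearest of 513, Snx2, Rala, Mrpl36 and Lrp8, say no more than that they too were just above it. Likeness over 3 arrays is a description with 1 sample a lineage.

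**Figure D4:**
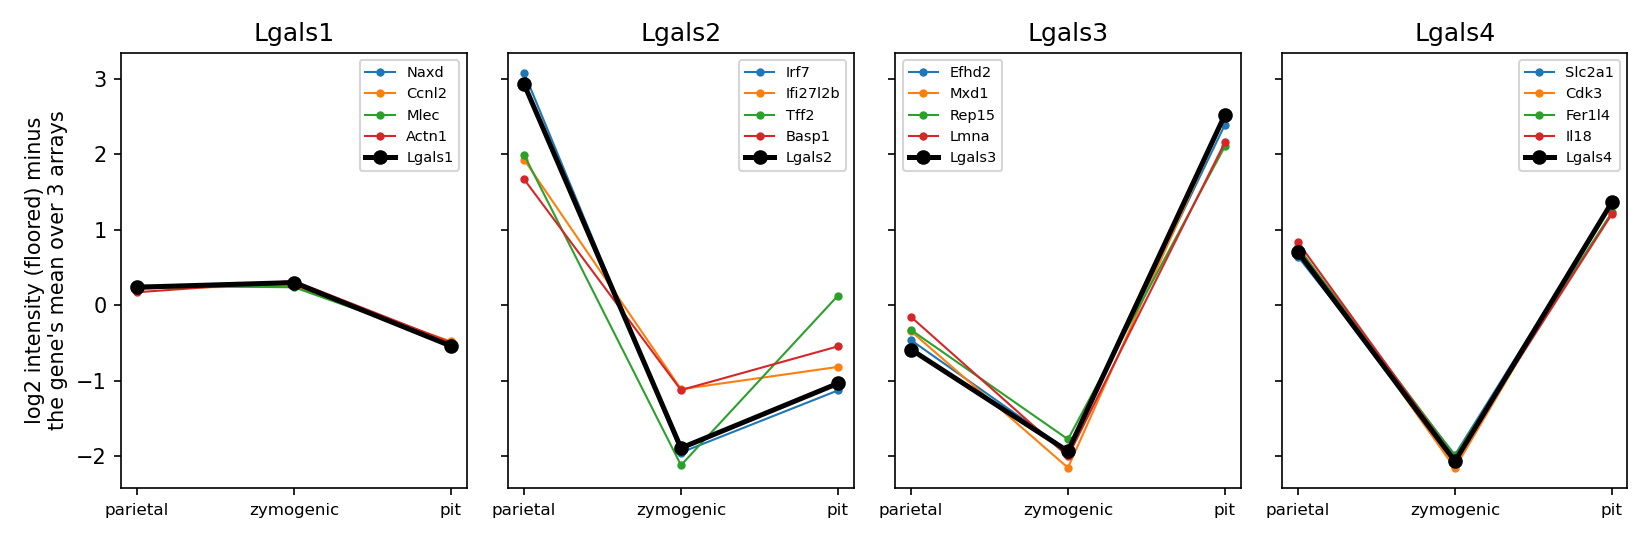
Log2 intensity, floored and centred on each gene's mean over the 3 arrays (y axis), of Lgals1, Lgals2, Lgals3 and Lgals4 (black) and of the 4 genes nearest to each (colours), on the parietal, zymogenic and pit arrays (x axis). Lines join the values of 1 gene and imply no order. The zymogenic values of Lgals2, Lgals3, Lgals4 and their neighbours are at the floor. Of the 4 genes drawn with Lgals2 only Irf7 runs close to it. The 4 genes around Lgals4 and Lgals1 nearly coincide with them. Genes within the scatter between probe sets numbered 154 for Lgals1 and 23 for Lgals4, most of them not drawn.

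The placement of Lgals2 and of the zymogenic lows did not depend on how the arrays were scaled, in the settings tried. The BioB and BioC hybridisation controls, transcripts added at a fixed amount, were at a geometric mean of 299.8 for the parietal, 700.3 for the zymogenic and 700.6 for the pit array. Scaling to them raised the parietal values relative to the others. Lgals2 was then higher on the parietal than on the pit array by 5.19 on the log2 scale and Lgals3 lower by a difference of -1.88, short of 4-fold. Lgals4 changed direction, to 0.57 for parietal minus pit, and Lgals1 reached 2.00, just past 4-fold.

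**Figure D5:**
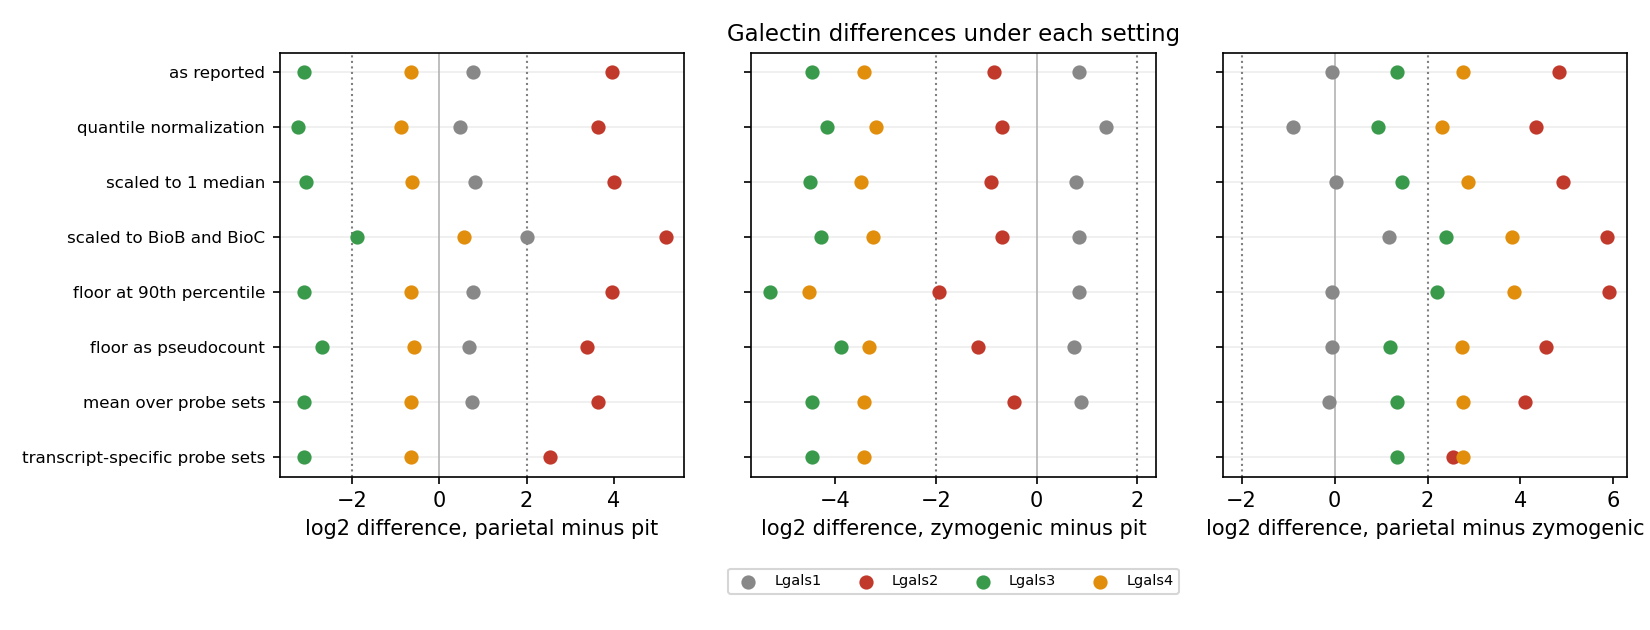
Log2 differences (x axis) of Lgals1 to Lgals4 for parietal minus pit, zymogenic minus pit and parietal minus zymogenic under each setting (rows), with dotted lines at 4-fold. Lgals2 stays above 2.5 in both panels with the parietal array, and Lgals3 and Lgals4 stay below -3.1 in the zymogenic minus pit panel.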

How the data were processed

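RNA of 3 gastric lineages was measured on 1 array each. The authors deposited 1 linear intensity per probe set and array; how probes were summarised, corrected and scaled is not stated in the labels, and no scaling was added. Per the labels' protocols this was total RNA, but the molecule field names nuclear RNA. RNA was pooled to 20 ng a lineage and amplified, which can lose the 5′ ends of transcripts.

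Of 45101 probe sets, 34958 name 1 gene and 932 several, and the latter were not used. Symbols of 34754 were matched by gene identifier to a RefSeq table of GRCm38, used for names. Of several probe sets, the one with the highest mean stood for the gene. The floor was the 95th percentile of the receptors on the array where this was highest. Genes were called at 4-fold, without a test. The members, gene lists and motifs were chosen with earlier results of these data known. The rule for named genes took the members, up to 4 genes a list at least 4-fold apart, brightest first, and the 4 nearest patterns. Other list and marker genes were named outside this rule, among them Mgat5, St6gal1, Ugt8a, Cers2, Fa2h, Arsa, Lgals3bp, Muc1 and Lamp1. Alternatives were 3 scalings, a pseudocount equal to the floor, floors at the 90th or the 99th percentile, other probe set choices and thresholds of 2-fold and 8-fold. Calculations used Python 3.11.15, numpy 2.4.6, pandas 2.3.3 and matplotlib 3.10.9 and were tested on simulated data. The number of arrays limits the precision.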

Additional observations from a re-analysis of the deposited data

How the results depend on the processing

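The number of galectins at least 4-fold apart stayed within 1.5 times in every setting that gave a value but 1, the 8-fold threshold in parietal against zymogenic, where 1 gene (Lgals2) was called and not 2. That count was 3, with Lgals3 added, at 2-fold, after scaling to BioB and BioC and with a 90th percentile floor. In parietal against pit, scaling to BioB and BioC kept the count at 2 but called Lgals1 and not Lgals3. Of 90 recomputed differences of single galectins, 64 moved by no more than the scatter between probe sets, 26 by more, and 3 changed sign, all of them under 4-fold as reported: Lgals4 for parietal minus pit with BioB and BioC (0.57), and Lgals1 for parietal minus zymogenic with those controls (1.16) and with 1 median (0.03). Some of the 64 could not move. Lgals3 and Lgals4 have 1 probe set each, so other probe set choices returned the same value. A lower floor leaves a difference between values above the floor unchanged. Over all settings, Lgals2 ranged from 2.54 to 5.19 and Lgals3 from -3.24 to -1.88 for parietal minus pit. With the floor at the 99th percentile (868), no galectin was above it and no value could be given. Lgals1 and Lgals9 have no transcript-specific probe set. Scaling to BioB and BioC multiplies each array by 1 factor, so it moved the parietal minus pit differences of Lgals1 to Lgals4 alike. The median of that difference over genes above the floor on both arrays went from 0.09 to 1.09. Why the controls were lower on the parietal array was not tested. No array could be left out, and no paired analysis was possible because each lineage has 1 array.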

Other observations

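Other galectin genes with a probe set on the arrays were Lgals7, Lgals12, Lgalsl and Grifin, of which 2 were above the floor. Lgals7, a prototype galectin of stratified epithelia, stood at 59.7 for the parietal, 0.00334 for the zymogenic and 65.0 for the pit array, 1.09-fold apart between parietal and pit and at least 2.79-fold lower on the zymogenic than on the pit array. Lgalsl, a galectin-like protein, read 25.8 for the parietal, 23.0 for the zymogenic and 72.6 for the pit array, and its second probe set 11.8, 4.51 and 26.3, so that the pit array was highest in both. Lgals12 and Grifin were under the floor throughout.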
